A study of Mus musculus with 16 samples.

Results

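Motile cilium genes were followed through the palate of mouse embryos at E13.5 and E14.5, on 16 one-colour Affymetrix arrays. The genes were those with a probe set of their own whose symbol starts with Dnah, Rsph, Tekt, Cfap or Drc and a number, or is Foxj1, Dynlrb2, Deup1, Ccdc39, Ccdc40, Rfx2, Rfx3 or Spag6. They numbered 56, on 87 probe sets, of 18194 genes with a probe set of their own. The rule also named Mcidas and symbols of Dnai and a number, under which the probe annotation used here lists no probe set. Of the probe sets of a gene, the 1 with the highest mean over all arrays was used, so the probe set was chosen by its mean level over all arrays and the gene by its symbol.

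All embryos were labelled C57BL/6J, and all carried Erk2 fl/fl, 2 copies of a floxed gene for the kinase ERK2. Mutants also carried Wnt1-Cre, which deletes the floxed gene in neural crest cells, the source of the palatal mesenchyme and not of its epithelium. Controls carried the floxed alleles without Cre, although the sample titles call them wild-type. Each genotype was represented by 3 arrays at E13.5 and by 5 at E14.5. At E14.5, replicates 1 and 2 of each genotype are labelled batch 1 and replicates 3, 4 and 5 batch 2. The sex of the embryos is labelled as not determined. The labels speak of palatal mesenchyme, as primary cells in the study description and as tissue in the extraction protocol. They do not give the number of embryos per array, so a p-value reflects no more than how these samples spread, and for arrays their number limits the precision.

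Motile cilia beat, and multiciliated epithelial cells carry many of them, as in the lining of the nasal passages, which the upper surface of the palate faces. Mcidas and its relatives start the programme of such a cell, Deup1 builds the deuterosomes that multiply its centrioles, and Foxj1 and the RFX factors switch on the genes of the axoneme. Inside the axoneme, dynein arms drive the sliding of doublet microtubules, radial spokes and the nexin-dynein regulatory complex control it, Ccdc39 and Ccdc40 form the ruler that spaces these parts, and tektins lie within the doublets. Mesenchymal cells carry a single immotile primary cilium, which lacks these parts.

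The label of mesenchyme was set against markers. Of 25 genes listed for palatal mesenchyme 24 passed the filter on low values, at least 3 arrays with a log2 value of 4 or more. Of 24 epithelium genes 21 passed it, and the samples thus held RNA of genes typical of epithelium. The mean of the 24 epithelium genes was 6.56 to 6.74 at E13.5, 6.18 to 6.26 in E14.5 controls and 6.46 to 6.69 in E14.5 mutants, as log2 expression. In bulk samples, fewer cells of a type and less RNA per cell cannot be told apart. The level of the targeted gene was not analysed here.

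The values of the stages were not on a common scale. The median over all probe sets was 3.39 to 3.44 in the E13.5 arrays and 1.63 to 1.66 in the E14.5 arrays, and the median gene lay 0.85 lower at E14.5. Stage and array processing cannot be told apart. Stage differences are therefore given on 3 scales: as deposited, after quantile normalization of all arrays (median gene -0.04), and with each array centred on its median (median gene 0.92). They are descriptions, because the genes were proposed with these data known. The place of a gene's probe set among the 45101 probe sets of its own array, its percentile, needs no common scale.

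The RFX factors, 2 of which are among the genes, bind a 6-base core, GTTGCC, that is common in promoters of cilium genes. Promoter windows of 250 bases before the start site and 50 after it were taken from RefSeq (GRCm38.p6) for 47 of the 56 genes and searched on both strands. The core was present for 15 of the 47 genes (31.9%) and for 14.1% of 27025 genes with a window. Of the 11 genes that stood out at E14.5, described next, 8 had a window and 4 of these held the core. The core was also present for 11 of the other 39 genes with a window (28.2%). Among them were Tekt2, lower at E14.5 on all 3 scales, and Cfap298 and Cfap300, higher on all 3. The windows of the 4 are shown because their genes belong to the 11. They run 5′ to 3′ on the strand of the gene, with the core in capitals, as GTTGCC or, on the opposite strand, GGCAAC.
Dynlrb2 (chr8:116504765-116505064, plus strand): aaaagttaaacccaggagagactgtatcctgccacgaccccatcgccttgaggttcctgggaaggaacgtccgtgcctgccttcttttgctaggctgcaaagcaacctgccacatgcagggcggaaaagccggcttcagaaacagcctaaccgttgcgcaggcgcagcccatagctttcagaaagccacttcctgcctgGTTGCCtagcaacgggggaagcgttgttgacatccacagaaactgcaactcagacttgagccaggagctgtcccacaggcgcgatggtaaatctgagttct
Deup1 (chr9:15627797-15628096, minus strand): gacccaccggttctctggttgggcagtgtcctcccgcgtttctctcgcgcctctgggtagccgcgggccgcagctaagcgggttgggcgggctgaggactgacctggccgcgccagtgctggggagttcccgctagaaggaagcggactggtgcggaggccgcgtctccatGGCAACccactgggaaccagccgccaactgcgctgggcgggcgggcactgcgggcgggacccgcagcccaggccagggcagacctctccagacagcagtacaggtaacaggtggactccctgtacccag
Tekt1 (chr11:72361833-72362132, minus strand): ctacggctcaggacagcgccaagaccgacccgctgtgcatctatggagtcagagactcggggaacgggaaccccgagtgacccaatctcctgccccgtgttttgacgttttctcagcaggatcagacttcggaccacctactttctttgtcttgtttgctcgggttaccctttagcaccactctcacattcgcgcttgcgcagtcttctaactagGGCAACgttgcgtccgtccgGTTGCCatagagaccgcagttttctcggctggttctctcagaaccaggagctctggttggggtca
Cfap161 (chr7:83794790-83795089, minus strand): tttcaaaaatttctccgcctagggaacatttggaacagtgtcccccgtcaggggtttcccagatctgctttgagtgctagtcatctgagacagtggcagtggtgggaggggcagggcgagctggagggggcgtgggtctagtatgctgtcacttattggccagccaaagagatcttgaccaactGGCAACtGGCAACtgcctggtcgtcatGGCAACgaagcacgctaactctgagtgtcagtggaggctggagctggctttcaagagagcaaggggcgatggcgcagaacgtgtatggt

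In Cfap161 the core occurred 3 times, all on the opposite strand, the farthest starting 66 bases before the start site. In Tekt1 it occurred 2 times, once on each strand, the farthest at 35 bases. Deup1 had 1 at 79 bases and Dynlrb2 had 1 at 51 bases. Deup1 and Tekt1 each had another window, for another start site, without the core. A paired form, GTTNCC then 2 bases then GGNAAC, was present for 2 of 47 genes, Cfap20dc and Cfap298 (4.26%, against 0.529% of all genes). It contains the 6-base core wherever its N is a G on 1 strand or the other. The forkhead motif TGTTTAC was present for 4 of 47 genes, Cfap20, Cfap43, Dnah17 and Tekt3 (8.51%, against 4.05%), and for 0 of the 8. These matches are a description of letters in a window.

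At E14.5, 11 of the 56 genes were higher than at E13.5 by at least 2 on the log2 scale as deposited, with every E14.5 array above every E13.5 array. Of all 18194 genes, 54 did this (0.297%). They were Dynlrb2, Deup1, Foxj1, Rsph1, Cfap126, Ccdc39, Rsph4a, Cfap161, Tekt1, Cfap206 and Cfap52, in the order of the difference, from 5.92 to 2.07. The highest gene below this threshold was Cfap69, at 1.18. None of the 11 reached 4 in an E13.5 array, and no detection call was used, so their E13.5 values were not shown to lie above background and the sizes of their differences depend on where the low values of the arrays lie. At E13.5 the 11 genes lay between the percentiles 3.92 and 53.0 of their arrays, and at E14.5 between 61.7 and 94.2. The smallest distance between the lowest E14.5 array and the highest E13.5 array was 1.18. After quantile normalization 13 genes passed the same limits, against 1.29% of all genes, and with centred arrays 18 genes, against 7.12%.

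Of the 3 transcription factors, Foxj1 belonged to the 11. Its log2 values at E13.5 were 1.92, 1.89 and 1.82 in controls and 1.84, 1.81 and 2.10 in mutants. At E14.5 they were 5.81, 6.05, 6.13, 5.79 and 6.45 in controls and 6.72, 5.81, 5.76, 6.02 and 6.19 in mutants. The stages stood far apart and the genotypes overlapped at each stage. The difference as deposited was 4.18.

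Rfx3, a partner of Foxj1 in cilium gene control, was high at both stages on the probe set used. It was at 6.24, 6.63 and 6.42 in E13.5 controls and 6.18, 6.38 and 6.03 in E13.5 mutants. It was at 6.47, 6.70, 6.56, 6.52 and 6.58 in E14.5 controls and 6.63, 6.39, 6.55, 6.63 and 6.61 in E14.5 mutants. The stages overlapped as deposited (0.25), and the difference was 0.84 after quantile normalization. Another, dimmer probe set of Rfx3 went from 2.43 to 1.24. Rfx2, a relative, stayed low, between 3.18 and 3.55 at E13.5 and between 1.67 and 2.07 at E14.5.

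Deup1, the only gene of centriole amplification among the 56, was at 2.09, 2.21 and 2.06 in E13.5 controls and 2.49, 2.37 and 2.42 in E13.5 mutants. At E14.5 it was at 6.92, 7.14, 7.08, 6.56 and 6.72 in controls and 7.26, 6.25, 6.36, 6.91 and 7.17 in mutants. Its percentile went from 26.9 to 34.9 at E13.5 to 81.8 to 88.3 at E14.5. The difference as deposited was 4.56.

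Dynlrb2, a roadblock-type light chain of dynein, had the largest difference of the 56 genes on all 3 scales: 5.92, 6.68 and 7.69. It was at 2.11, 1.97 and 1.92 in E13.5 controls and 2.02, 1.86 and 2.15 in E13.5 mutants. It was at 7.86, 8.23, 8.06, 7.50 and 8.04 in E14.5 controls and 8.45, 7.26, 7.59, 8.08 and 8.14 in E14.5 mutants. With its E13.5 arrays at percentiles of 21.8 to 27.4, these sizes too rest on low values.

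The 10 dynein heavy chains, the motor subunits themselves, gave no such difference. As deposited, 0 of 10 were above and 10 of 10 below (5.69% of all genes were above and 74.8% below). After quantile normalization 4 were above, 4 overlapped and 2 were below (25.0% of all genes were above and 30.6% below). Of these genes 9 were under 4 in all 16 arrays. Dnah1, an inner-arm heavy chain, was the exception, at 4.94, 5.06 and 5.34 in E13.5 controls, 4.89, 4.82 and 4.47 in E13.5 mutants and between 1.88 and 2.61 in the E14.5 arrays. Dnah1 and Dnah9, an outer-arm chain, were lower at E14.5 on all 3 scales, Dnah1 by values of -2.68, -1.06 and -0.91. Dnah9 did not exceed 2.94 in any array.

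**Figure D1:**
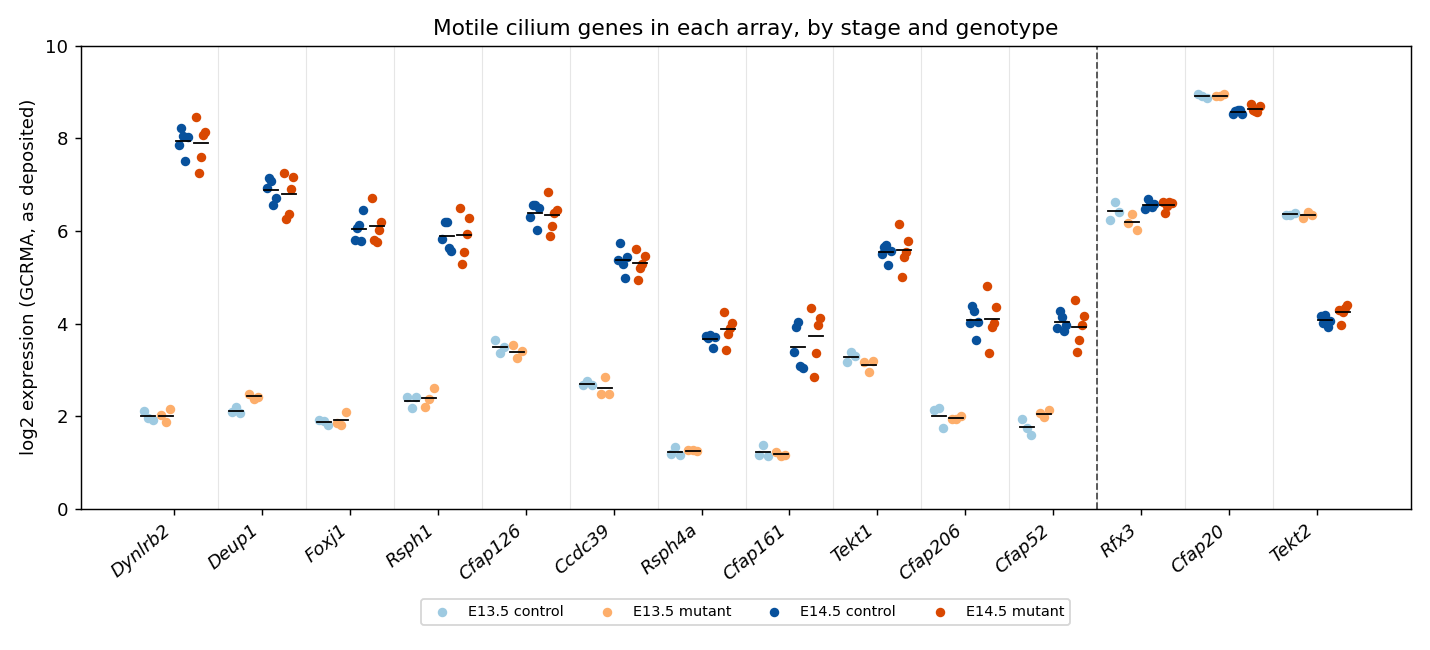
Log2 expression as deposited (vertical axis) of 14 genes (horizontal axis) in each of the 16 arrays. Each point is 1 array, coloured by stage and genotype, and bars are group means. Left of the dashed line are the 11 genes higher by at least 2 at E14.5, whose stages do not overlap. Right of it, Rfx3 and Cfap20 stay high at both stages and Tekt2 is lower at E14.5.

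Of 6 radial spoke genes, Rsph1 and Rsph4a, both of the spoke head, were above at E14.5 on all 3 scales. As deposited, 2 of the 6 were above and 4 below, against 5.69% and 74.8% of all genes. After quantile normalization 3 were above and 0 below, against 25.0% and 30.6%. Rsph1 was at 2.42, 2.18 and 2.42 in E13.5 controls and 2.19, 2.37 and 2.61 in E13.5 mutants. It was at 5.82, 6.20, 6.20, 5.64 and 5.58 in E14.5 controls and 6.51, 5.29, 5.55, 5.93 and 6.29 in E14.5 mutants. The lowest E14.5 array thus exceeded the highest E13.5 array by more than the whole spread within either stage.

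Rsph4a was at 1.19, 1.34 and 1.17 in E13.5 controls and 1.26, 1.26 and 1.24 in E13.5 mutants. At E14.5 it was at 3.73, 3.69, 3.75, 3.48 and 3.71 in controls and 4.25, 3.44, 3.78, 3.90 and 4.02 in mutants. It reached 4 in too few arrays for the filter and was not tested. Rsph9, also of the head, passed it and took the other direction as deposited. It was at 5.19, 5.16 and 4.70 in E13.5 controls, 5.04, 4.94 and 5.31 in E13.5 mutants, and between 3.40 and 4.68 at E14.5. Its difference was -1.20 as deposited and 0.19 after quantile normalization. Rsph3a, Rsph6a and Rsph14 did not exceed 2.48 in any array.

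Of the ruler and regulatory complex, Ccdc39 was at 2.66, 2.76 and 2.66 in E13.5 controls and 2.47, 2.84 and 2.48 in E13.5 mutants. At E14.5 it was at 5.38, 5.74, 5.30, 4.98 and 5.44 in controls and 5.61, 4.93, 5.19, 5.30 and 5.47 in mutants. Its other probe sets were dimmer and parted: 1 went from 1.05 to 1.94 and 1 from 1.58 to 0.81. Ccdc40, the other protein of the ruler, did not exceed 3.72 at E13.5 or 1.99 at E14.5.

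Drc3, a subunit of the nexin-dynein regulatory complex, was above at E14.5 on all 3 scales by 0.92, 2.39 and 2.69. It was at 4.14, 4.34 and 4.12 in E13.5 controls, 3.91, 3.84 and 3.99 in E13.5 mutants, 4.76, 5.29, 5.35, 4.81 and 4.82 in E14.5 controls and 5.52, 4.48, 4.76, 4.99 and 5.00 in E14.5 mutants. Another, dimmer probe set of Drc3 went from 1.92 to 1.09. Drc1, of the same complex, was between 1.13 and 2.44 in all arrays.

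The tektins, filament proteins of the doublet wall, parted. Tekt1 was at 3.17, 3.38 and 3.29 in E13.5 controls and 3.17, 2.96 and 3.20 in E13.5 mutants. It was at 5.51, 5.65, 5.70, 5.28 and 5.56 in E14.5 controls and 6.14, 5.01, 5.45, 5.54 and 5.78 in E14.5 mutants. Tekt2 was lower at E14.5 on all 3 scales, by -2.20, -1.33 and -0.43.

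Tekt2 was at 6.35, 6.34 and 6.39 in E13.5 controls and 6.28, 6.42 and 6.35 in E13.5 mutants. It was at 4.17, 4.01, 4.18, 3.92 and 4.07 in E14.5 controls and 4.29, 3.97, 4.24, 4.33 and 4.40 in E14.5 mutants. Its percentile went from between 77.6 and 79.0 to between 68.3 and 70.5. Tekt3, Tekt4 and Tekt5 did not exceed 3.01 in any array.

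Of 25 Cfap genes, named for association with cilia and flagella, 8 were above at E14.5 on all 3 scales and 14 stayed under 4 in all arrays. Of the 8, 4 belonged to the 11 genes. As deposited, 8 of the 25 were above and 13 below, against 5.69% and 74.8% of all genes. After quantile normalization 14 were above and 3 below, against 25.0% and 30.6%. The share of all genes above on all 3 scales together was not counted. Cfap126, also called Flattop and needed to place basal bodies, was at 3.64, 3.37 and 3.49 in E13.5 controls and 3.53, 3.25 and 3.41 in E13.5 mutants. It was at 6.31, 6.57, 6.56, 6.02 and 6.50 in E14.5 controls and 6.84, 5.89, 6.12, 6.40 and 6.45 in E14.5 mutants.

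Cfap161, a protein inside the doublet, was between 1.14 and 1.38 at E13.5. It was at 3.38, 3.91, 4.04, 3.08 and 3.04 in E14.5 controls and 4.33, 2.84, 3.37, 3.97 and 4.12 in E14.5 mutants. Its spread over the E14.5 arrays, 1.49 from lowest to highest, was the widest of the 11. Cfap206, which anchors radial spokes, was between 1.74 and 2.17 at E13.5. At E14.5 it was at 4.02, 4.38, 4.27, 3.65 and 4.02 in controls and 4.80, 3.36, 3.93, 4.02 and 4.36 in mutants. Cfap52, another protein inside the doublet, was at 1.94, 1.75 and 1.60 in E13.5 controls and 2.06, 1.97 and 2.13 in E13.5 mutants, and then at 3.90, 4.27, 4.13, 3.84 and 3.98 in E14.5 controls and 4.51, 3.38, 3.64, 3.98 and 4.16 in E14.5 mutants. Its other probe set went from 1.31 to 0.97.

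The other 4 were Cfap69, Cfap298, Cfap36 and Cfap300, with differences of 1.18, 0.80, 0.58 and 0.47 as deposited. Cfap298 and Cfap300 serve the assembly of dynein arms. Cfap298 was between 5.76 and 6.18 at E13.5 and between 6.71 and 6.99 at E14.5, but 2 of its 4 probe sets went from 4.39 to 0.83 and from 3.87 to 1.17. Cfap300 was between 5.52 and 5.85 and then between 6.03 and 6.49. Cfap36 was between 7.64 and 7.91 and then between 8.21 and 8.59. Cfap69 went from a mean of 2.28 to 3.46, and its dimmer probe sets from 2.04 to 2.10 and from 1.32 to 0.83.

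Cfap20, at the junction of the doublet's tubules, was high in every array, at 8.87 to 8.95 in the E13.5 arrays and 8.53 to 8.74 in the E14.5 arrays. Cfap97 went from between 6.85 and 6.97 to between 5.85 and 6.28. Cfap410, found at the base of primary cilia too, went from between 5.18 and 5.35 to between 3.69 and 4.04, and Cfap20dc from between 4.59 and 4.98 to between 3.49 and 3.99. Their directions turned with the scale: Cfap20 -0.31, -0.15 and 1.46, Cfap97 -0.82, -0.32 and 0.95, Cfap410 -1.38, -0.07 and 0.39, and Cfap20dc -1.07, 0.41 and 0.70, in the order of the scales above.

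Over all 56 genes, 16 were above at E14.5 on all 3 scales and 3 below (Dnah1, Dnah9 and Tekt2), and for 37 the outcome turned with the scale or the stages overlapped. As deposited 16 were above and 33 below, against 5.69% and 74.8% of all genes. After quantile normalization 30 were above and 6 below, against 25.0% and 30.6%, and with centred arrays 45 and 3, against 69.7% and 9.76%. The median of the 56 differences was -0.61, 0.53 and 1.16 on the 3 scales, beside -0.85, -0.04 and 0.92 for all genes. Of the 56 genes, 33 were under 4 in all 16 arrays.

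**Figure D2:**
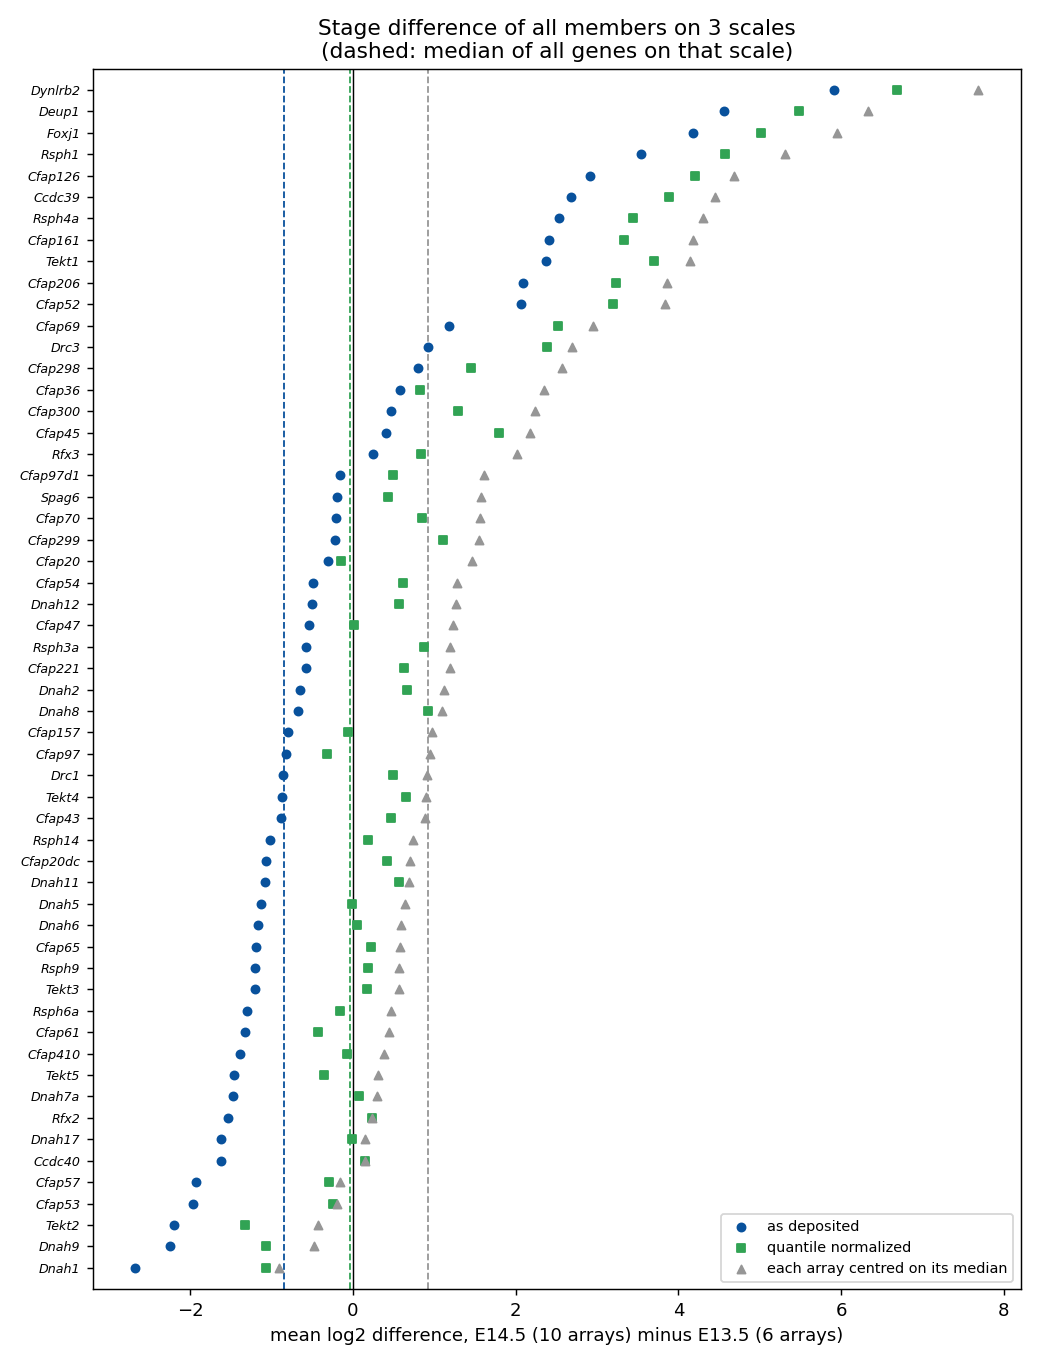
Mean log2 difference between the 10 E14.5 and the 6 E13.5 arrays (horizontal axis) for each of the 56 genes (vertical axis), on 3 scales given by symbol and colour. Dashed lines are the medians of all genes on each scale, at -0.85, -0.04 and 0.92. The 11 genes at the top lie beyond 2 on all scales, and Tekt2, Dnah9 and Dnah1 at the bottom are below 0 on all of them. Cfap53 and Cfap57 are also below 0 on all scales, but with centred arrays their stages overlapped.

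The test across genes covered the 22 genes that passed the filter, of which 10 did so only through E14.5 arrays and 2 only through E13.5 arrays, so their counts say nothing of the 34 others. With limma on quantile normalized values, 20 of 22 were called between the stages in controls and 20 in mutants, at a background of 77.4% and 77.0% of all genes tested. In each genotype 16 were higher and 4 lower at E14.5, with 33.9% of all genes higher and 43.6% lower in controls, and 34.8% and 42.3% in mutants. As deposited the calls were 14 higher and 7 lower in controls and 15 and 7 in mutants, and with centred arrays 20 and 2 in each. The quantile normalized differences of the 10 tested genes among the 11 were 3.19 to 6.69 in controls and 3.07 to 6.68 in mutants. The genes were proposed with this contrast known, so nothing is read from these counts.

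The question of the study, what the loss of ERK2 in neural crest cells changes, was put to the same genes. No gene of the 22 was called between mutants and controls. At E13.5 0 of 22 had an adjusted p under 0.05 in limma, against 0.0990% of all genes tested, and at E14.5 0 of 22, against 2.63%. For the difference between the stages in the genotype effect it was 0 of 22, against 0.117%. At an unadjusted p under 0.05 there were 2 of 22 at E13.5 (9.09%, against 9.54% of all), 2 at E14.5 (9.09%, against 17.3%) and 1 for the difference (against 10.4%). The lowest adjusted p-values of limma were 0.503, 0.193 and 0.457. The median difference was -0.05 at E13.5 and 0.01 at E14.5, beside -0.04 and 0.01 over all genes tested.

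The intervals say how large a difference these arrays could have missed. For the 10 tested genes of the 11, mutant minus control at E14.5 ran from -0.09 to 0.23, and their 95% intervals together from -0.47 to 0.79, that is, from 0.722 to 1.73 times the control level. At E13.5, where the same genes had low values, the differences ran from -0.17 to 0.31 and the intervals from -0.77 to 0.79. Foxj1 differed by 0.05 ± 0.17 at E14.5 (moderated SE, n = 5 and 5, 95% interval -0.30 to 0.41, limma). Dynlrb2 differed by -0.03 ± 0.19 (95% interval -0.44 to 0.37), and Deup1 by -0.09 ± 0.18 (-0.47 to 0.29). The widest interval was that of Cfap161, at 0.23 ± 0.26 (-0.32 to 0.79).

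The smallest p-values belonged to other genes. At E13.5 Rfx3 was at -0.24 (adjusted p = 0.503, limma) and Dnah1 at -0.38 (adjusted p = 0.522, limma). At E14.5 Cfap97 was at 0.14 (adjusted p = 0.193, limma) and Tekt2 at 0.18 (adjusted p = 0.226, limma). These 4 had an unadjusted p under 0.05, and none passed after adjustment. Rfx3 at E14.5 was at -0.0015 with a 95% interval of -0.18 to 0.17.

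Groups without overlap were counted as well. At E13.5 6 of 22 tested genes (Cfap300, Cfap36, Cfap52, Deup1, Dnah1 and Drc3) had mutants and controls that did not overlap, against 17.9% of all genes tested. Deup1 was higher in mutants there, by 0.31 ± 0.23 (adjusted p = 0.708, limma), at a level where its highest array was 2.49. At E14.5 0 of 22 did not overlap, against 4.41%. Of the 34 genes outside the test, Dnah11 and Dnah12 at E13.5 and Dnah7a at E14.5 had groups without overlap, all at values under 4.

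**Figure D3:**
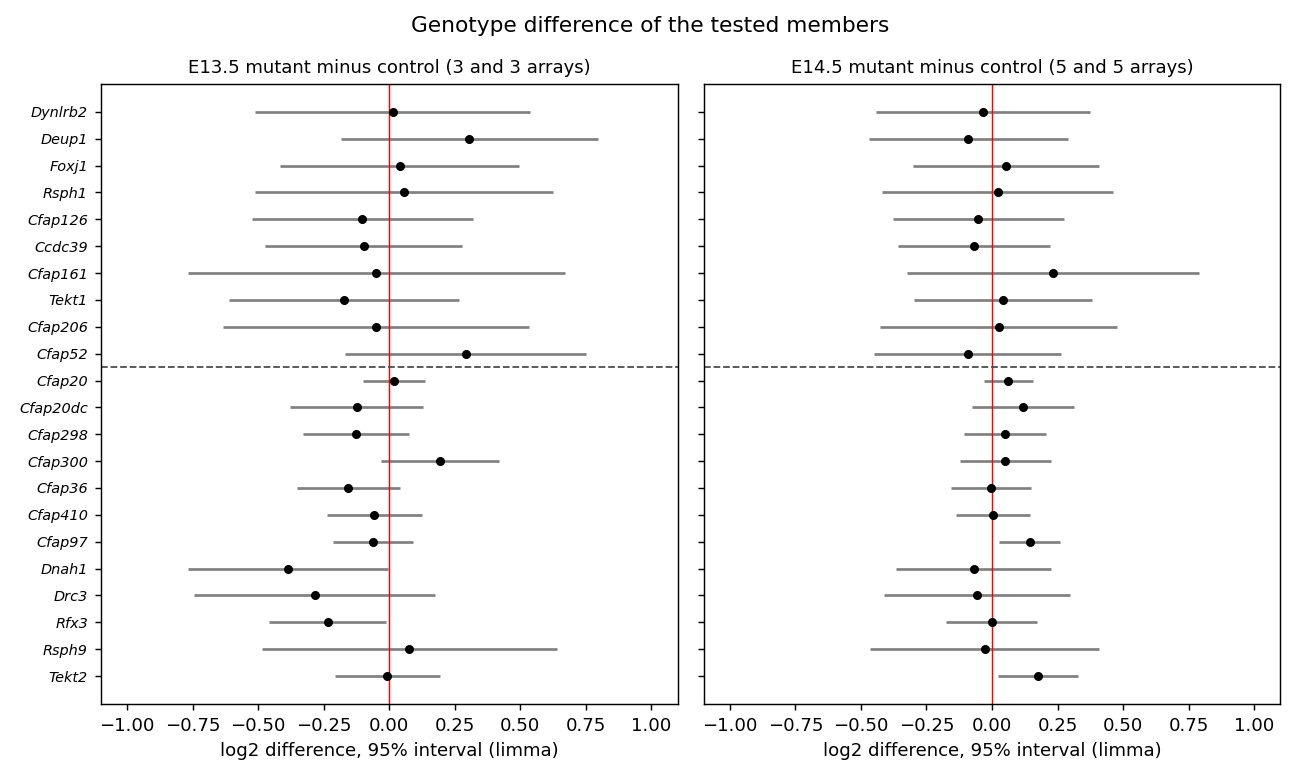
Mutant minus control log2 difference (horizontal axis) of the 22 tested genes (vertical axis) at E13.5 (left) and E14.5 (right), with 95% intervals from limma. The 10 genes above the dashed line belong to the 11 that were higher at E14.5. Their E14.5 differences lie between -0.09 and 0.23 and each of their intervals spans 0.

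The E14.5 arrays differed among themselves, and the 11 genes moved together in this. Mutant 1 had the highest value of the 10 arrays for 10 of the 11 genes (it was highest for 15.2% of all genes tested), and control 2 for Ccdc39. Mutant 2 had the lowest for 10 of the 11 (lowest for 6.12%), and mutant 3 for Foxj1. Both ends thus lay in mutants of batch 1. The mean of the 11 genes was 5.95 in mutant 1 and 4.86 in mutant 2. The single-gene gaps between the pair ran from 0.67 for Ccdc39 to 1.49 for Cfap161. The mean over mutants was 5.41 ± 0.42 and over controls 5.39 ± 0.22 (SD, n = 5 each), and at E13.5 it was 2.21 ± 0.05 and 2.18 ± 0.06 (SD, n = 3 each).

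The genotype difference turned with these arrays. Without mutant 1 the E14.5 differences of the 10 tested genes ran from -0.26 to 0.05, with 9 negative, and without mutant 2 from 0.07 to 0.51, with 10 positive. The lowest adjusted p in limma was 0.434 and 0.222. Within batch 1 the differences of the 11 genes ran from -0.29 to 0.33, with 9 negative, and within batch 2 from -0.13 to 0.43, with 8 positive.

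Epithelium genes followed another order. The mean of the 21 tested ones was 6.87 to 6.96 in controls and 7.19 to 7.43 in mutants, without overlap. Mutant 1 was at 7.33 and mutant 2 at 7.19, and mutant 5 was the highest, for 12 of the 21 genes. The share of all genes that were highest in mutant 5 was not counted. Of these genes 9 rose in E14.5 mutants, against 1.48% of all genes tested, and 0 fell, against 1.15%. The part of the amount of epithelium in the values of the cilium genes was not tested.

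**Figure D4:**
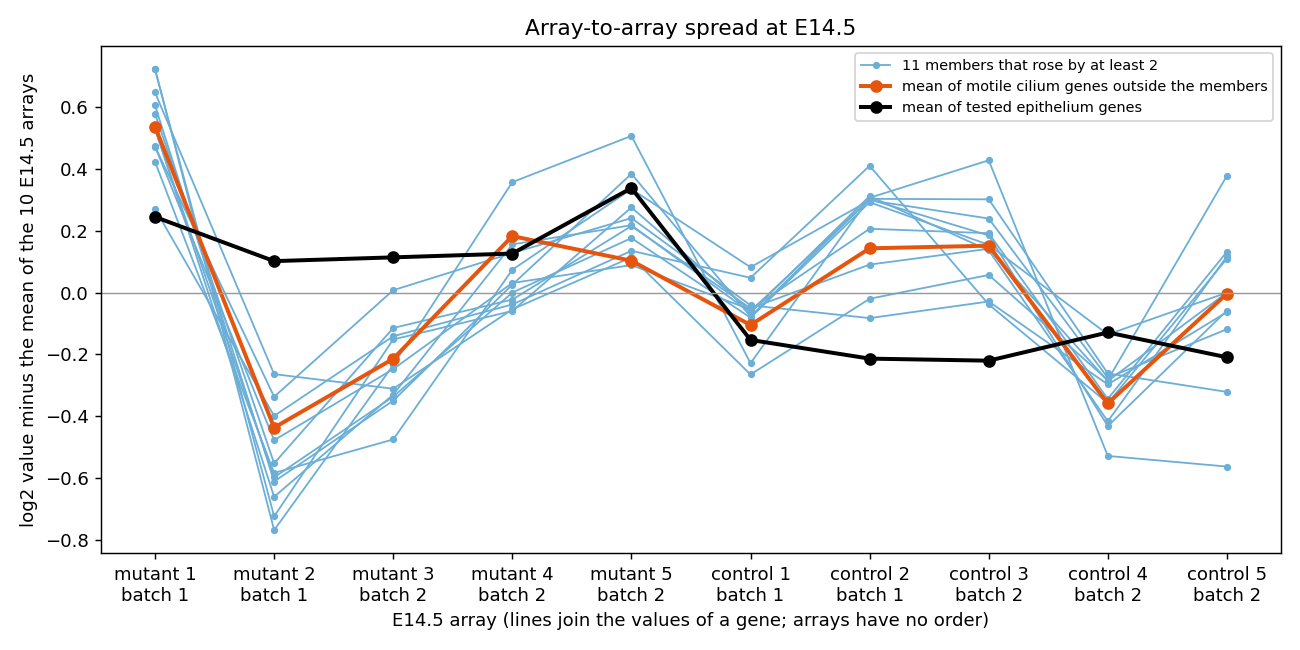
Log2 value of each gene minus its mean over the 10 E14.5 arrays (vertical axis) for each E14.5 array (horizontal axis). Thin lines are the 11 genes, and the black line is the mean of tested epithelium genes. The thick orange line is the mean of 16 motile cilium genes outside the 56. These were picked from the 49 measured for being above at E14.5 on all 3 scales. Most thin lines peak in mutant 1 and dip in mutant 2, while the black line is above 0 in all 5 mutants and below 0 in all 5 controls.

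Other motile cilium genes, from a list of 58 names, had 49 measured outside the 56, of which 22 were tested. The list also held Deup1 under an older symbol, which is counted among the 56 and left out here. Of the 49, 16 were above at E14.5 on all 3 scales, and 6 of these by at least 2 as deposited: Meig1 (4.09), Pifo (3.50), Ccdc113 (3.21), Enkur (3.07), Capsl (2.34) and Myb (2.11). As deposited, 16 of the 49 were above and 15 below at E14.5, against 5.69% and 74.8% of all genes. After quantile normalization 32 were above and 4 below, against 25.0% and 30.6%. By mean difference alone, whether or not the stages overlapped, Odf3b (-2.61, -0.88 and -0.84 on the 3 scales) and Ccdc114 (-2.43, -0.89 and -0.66) were lower on each scale. So were Trp73 (-1.96, -0.29 and -0.19), Hydin (-1.91, -0.58 and -0.14) and Spef1 (-1.78, -0.68 and -0.01). Myb, an early factor of multiciliated cells, went from between 5.32 and 5.58 to between 7.21 and 7.83. Trp73, of the same list, went the other way, from between 4.28 and 5.16 to between 2.30 and 3.20. Ccno, which acts with deuterosomes, went from between 2.93 and 3.30 to between 3.45 and 4.31. Zmynd10, of dynein arm assembly, and Armc4 and Ttc25, of the docking of outer arms, were above as well, by 1.12, 1.39 and 0.96. Genes with Dnaaf symbols, Dnaaf1, Dnaaf2, Dnaaf4, Dnaaf5 and Dnaaf6, were lower as deposited, by -0.21, -0.83, -0.88, -1.02 and -0.37. After quantile normalization their differences were 1.29, -0.21, 0.89, -0.05 and 0.29. In mutant 1 12 of the 16 were highest among the E14.5 arrays, against 15.2% of all genes tested. In mutant 2 8 were lowest, against 6.12%. In control 4 6 were lowest, where the share over all genes was not counted.

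Between genotypes 0 of these 22 tested genes were called at E13.5, against 0.0990% of all genes tested. There 1 had an unadjusted p under 0.05 in limma, against 9.54%. At E14.5 1 of the 22 was called, against 2.63%. This was Dnaaf2, an assembly factor of dynein arms, which rose by 0.19 ± 0.04 in mutants (moderated SE, n = 5 and 5, adjusted p = 0.0318, limma), from 5.56 to 5.76. It was not among the 16, with a stage difference of -0.83 as deposited. An unadjusted limma p under 0.05 was found for 2 of the 22 at E14.5, against 17.3%. Of the 22 differences there 20 were above 0 and 2 below, beside 6226 and 4890 of all genes tested. Their median was 0.09, beside 0.01. At E13.5 11 were above 0 and 11 below. Whether the direction at E14.5 goes beyond the spread of the arrays was not tested. The dynein intermediate chains carry older symbols in the annotation, and their values were looked at after the others. Dnaic2 went from between 1.22 and 1.48 to between 3.76 and 5.17, and Dnaic1 from between 3.04 and 3.42 to between 1.02 and 1.54.

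Genes of intraflagellar transport and the primary cilium, which mesenchymal cells also carry, gave 3 of 47 above on all 3 scales (Ift74, Ift122 and Bbs5, by 0.36, 0.35 and 0.31 as deposited) and 0 by at least 2. Of their 45 tested, 0 were called between genotypes at either stage in limma, against 0.0990% of all genes tested at E13.5 and 2.63% at E14.5. An unadjusted limma p under 0.05 was found for 5 of the 45 at E13.5, against 9.54%, and for 6 at E14.5, against 17.3%. Of 24 epithelium genes 6 were above on all 3 scales, Krt19 by 1.16 and Krt14 by 1.07, and 0 by at least 2. Of 23 genes of the secretory airway and nasal epithelium 4 were above, with Bpifa1, a secreted protein of the upper airway, by 4.50 and Cyp2f2 by 2.99. As deposited, 16 of the 23 were below at E14.5, against 74.8% of all genes, among them Muc5b (-2.50), Muc5ac (-2.46) and Tff2 (-2.09). The median over the list was -0.99, beside -0.85 for all genes. After quantile normalization 10 were above and 4 below, against 25.0% and 30.6% of all genes. Bpifa1 went from between 1.63 and 4.28 to between 6.81 and 8.57. Counts above on all 3 scales were 0 of 18 for neurons, 0 of 25 for skeletal muscle, 1 of 18 for cartilage and 1 of 25 for palatal mesenchyme. On the deposited scale alone, 5.69% of all genes were above. The share above on all 3 scales, which cannot exceed this, was not counted. As deposited, 33 of 47 genes of intraflagellar transport and the primary cilium and 8 of 24 of epithelium were below at E14.5. So were 9 of 18 of neurons, 6 of 25 of skeletal muscle, 9 of 18 of cartilage and 16 of 25 of palatal mesenchyme. Of all genes, 74.8% were below on that scale, so none of these lists exceeded that share. The lists were chosen with results of these data known, so their counts are a description.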

How the data were processed

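The deposited values are log2 expression values of 45101 probe sets, which the authors made with GCRMA, per the submitters' processing notes. Its version, its settings and whether the stages were run together are not stated in the sources used. Probe sets were named through the platform annotation, with 34958 given to 1 gene, 932 to several and 64 controls. The most intense probe set on average stood for a gene, which left out 2 probe sets of the gene families shared by 2 genes each. Genes with at least 3 arrays at a log2 value of 4 or more were tested, 11116 of 18194. One limma 3.58.1 fit (R 4.3.3, lmFit and eBayes) held all 16 arrays, with a term per group and 1 for the batch labelled at E14.5. Genotypes were compared on values as deposited and stages after quantile normalization. A call needed an adjusted p under 0.05 (Benjamini-Hochberg, over all genes tested). Replicate numbers were checked and do not pair the arrays: the correlations of same-numbered arrays ran from -0.45 to 0.17.

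Members, gene lists and promoter motifs were chosen with earlier results of these data known. Named with values were members called in any contrast, those with the smallest genotype p, those with the highest levels, and the regulators Foxj1, Deup1, Rfx2 and Rfx3. Other genes were named after their values were seen. Alternatives covered the filter, the probe set rule, normalization, the variance model, array weights, the batch term, beta-actin signal, a block for replicate number and the removal of each array in turn. The scripts were tested on simulated data. Figures used Python 3.11.15 and matplotlib 3.10.9.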

Additional observations from a re-analysis of the deposited data

Results flagged for a closer look

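For the 22 tested genes and Rfx2, the highest and the lowest array of each E14.5 genotype group were checked, in 46 groups. In 2 of the groups an array stood apart by the gap to the next value over the range of the group. Chance gives about 1 such group in 20. Cfap300 was at 6.49 in E14.5 control 2, with the next highest control at 6.14. Dnah1 was at 2.58 in E14.5 mutant 4, with the next highest mutant at 2.17. Neither gene was called between genotypes at E14.5.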

How the results depend on the processing

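Counts of called members between genotypes remained 0 at E13.5, at E14.5 and for their difference under all alternatives, leaving out each array included (0 to 0), while counts over all genes ran from 6 to 85 around 11 at E13.5 and from 5 to 371 around 292 at E14.5. The lowest adjusted p of a member over the alternatives was 0.168, 0.0506 and 0.251. The replicate block gave 0, 0 and 0, and 19 members between stages in each genotype. Between stages, leaving out each array gave 18 to 20 members in controls and 19 to 20 in mutants of 22, and without the filter 40 and 46 of 56 were called. Over the alternatives the stage differences of the 10 tested genes of the 11 lay between 1.73 and 7.69; they were chosen for a large difference, so this is no sign of stability. Some other members reversed: with the mean over probe sets Cfap298 was at -0.10 in controls and -0.17 in mutants and Cfap97 at 0.19 and 0.13. With centred arrays Cfap20 was at 1.42 and 1.50, Cfap410 at 0.34 and 0.44 and Cfap97 at 0.83 and 1.07. As deposited Cfap20dc was at -1.19 and -0.95 and Rsph9 at -1.15 and -1.25. Centring and the deposited scale shift the median gene by 0.92 and -0.85, 2 of 4 probe sets of Cfap298 went the other way, and for Cfap97 the cause was not tested. Signal over background limits the members under 4 in all arrays, for which no detection call was used.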
